A study of Mus musculus with 2 samples.

Results

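The genes described here build the nuclear pore complex and the receptors that carry cargo through it. They were chosen by name, as every probe set whose single gene symbol is Nup, Kpna, Kpnb, Ipo or Xpo with a digit, or one of a short list of further pore, Ran-cycle and export genes. This gave 136 of the 45101 probe sets on the array and 52 of 18194 genes. The RNA came from NIH3T3, a mouse fibroblast line derived from embryos, grown in serum-containing medium. One culture was infected with a retrovirus expressing a short hairpin RNA (shRNA) labelled CCR4b RNAi, the other with a retrovirus labelled Control RNAi. CCR4b, also called CNOT6L, is one of the deadenylases of CCR4-NOT, a complex that trims poly(A) tails. Each group holds 1 array (an Affymetrix GeneChip for mouse), so no difference below has a replicate check or a p-value, and the hairpin cannot be told apart from any other difference between the 2 dishes.

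The nuclear pore complex is a ring of nucleoporins set into the nuclear envelope. A scaffold of Y-shaped complexes and an inner ring is anchored by membrane proteins, and it holds flexible proteins rich in phenylalanine-glycine repeats that fill the channel. Importins bind cargo in the cytoplasm and release it in the nucleus when they meet RAN bound to GTP, whereas exportins bind cargo together with RAN-GTP and release it in the cytoplasm. The exchange factor RCC1 in the nucleus and the activating protein RANGAP1 in the cytoplasm keep the gradient. In dividing mammalian cells the pores disassemble at mitosis, and importin beta and RAN also take part in spindle assembly.

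Of the 52 genes, 50 were measured, which means that their brightest probe set reached 8.07 units on at least 1 array. This floor is the median of all values of both arrays and was used because the table holds no detection calls. The brightest probe set is the one with the highest mean log2 signal, and it stands for its gene below unless another is named. The 2 unmeasured genes encode membrane-anchored nucleoporins of the NUP210 family. Nup210 read 3.36 units in the CCR4b RNAi culture and 3.46 in the control, and Nup210l read 1.67 and 7.70 units. Tpr, which encodes a nuclear basket protein and is named in the selection, had no probe set under its symbol and was not analysed here. Another 3 probe sets name a member together with a second gene and were left out.

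Nuclear pore and transport mRNAs were mostly lower in the CCR4b RNAi culture, by moderate amounts. At least a 1.5-fold lower signal was seen in 20 of the 50 measured members (40%), against a background of 14.6% of all 11915 measured genes. With signals raised to the floor, no member was at least 1.5-fold higher, against a background of 11.3%. Kpna7, whose control signal lay below the floor, is the member whose ratio the floor limits. At least a 2-fold lower signal was seen in 6 members (12%), against 4.48% of all measured genes. Those 6 were Ndc1, Kpna1, Kpnb1, Nup85, Kpna2 and Cse1l. The median log2 ratio of CCR4b RNAi over control RNAi was -0.52 over the members and -0.070 over all measured genes. Of the 50 members 44 had a ratio below 0 (88%), as did 56.0% of all measured genes. In bulk RNA, fewer cells that express a gene and less RNA per cell cannot be told apart. These genes were chosen with earlier results of the same arrays known, so the counts are a description and no independent support for the direction.

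**Figure D1:**
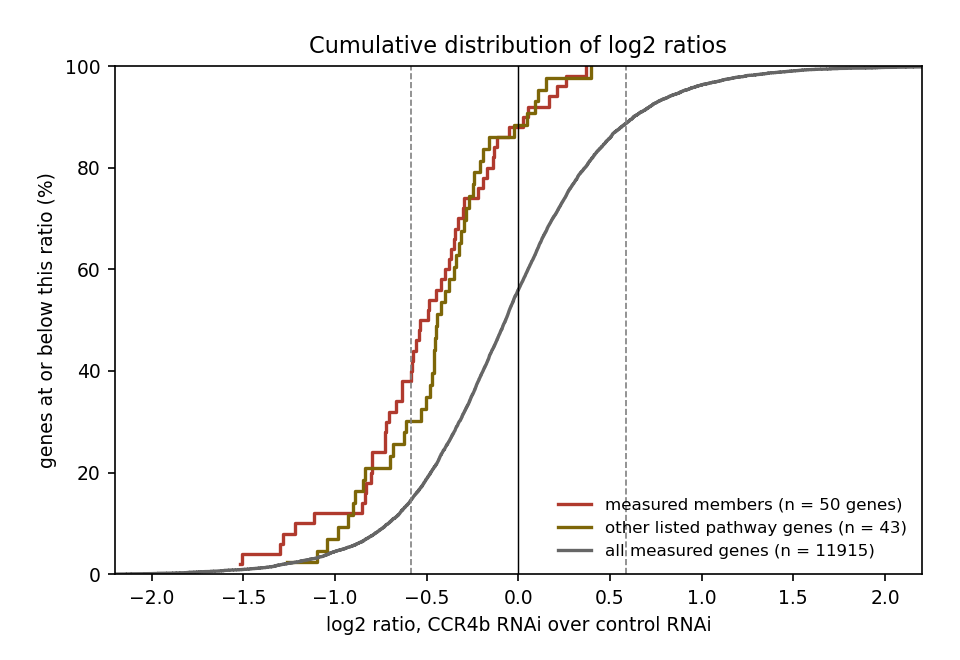
Cumulative distribution of log2 ratios (x axis, CCR4b RNAi over control RNAi) as the percentage of genes at or below each ratio (y axis) for the 50 measured members, 43 other listed genes of the pathway and all 11915 measured genes. Dashed lines mark 1.5-fold. The curve of the members lies left of that of all genes, and it ends below the 1.5-fold higher line.

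The spread to read these ratios against is that between genes, since no repeat array exists. Within 10 classes of equal size by signal, log2 ratios had a robust SD (from the median absolute deviation) of 0.36 to 0.58 in the classes that hold members. The brightest class had a median log2 ratio of -0.17, against -0.52 over the members. Of the 50 members, 41 lay below the median of their class. Each of the 20 lower members lay more than 1 robust SD below it. The 1.5-fold cutoff that picked them largely fixes this in advance, so it is no separate check. Over 4550 pairs of probe sets, each pair annotated to the same gene, the robust SD between probe sets was 0.30 log2 units.

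Several checks concern the cultures as a whole. All 9 fibroblast markers examined were above the floor on both arrays, and the 3 endothelial markers were below it on both. Among the 4 epithelial markers Epcam was above it, at 29.5 units after CCR4b RNAi and 19.4 units in the control, and among the 3 leukocyte markers Cd68 was, at 9.42 and 24.0 units. Ptprc and Cd3e were below the floor on both arrays. Cnot6l itself read 43.0 units after CCR4b RNAi and 102 units in the control (log2 ratio -1.25). The ratio of 3' to 5' signal of Actb, a measure of RNA integrity, was 1.46 after CCR4b RNAi and 1.35 in the control. Genes that mark dividing cells were also lower in this pair. Mki67 read 96.5 units after CCR4b RNAi and 237 in the control, and Cdk1 read 260 and 672 units. Pcna read 989 and 1751 units. The part of cell division in the ratios of the transport genes was not tested.

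**Figure D2:**
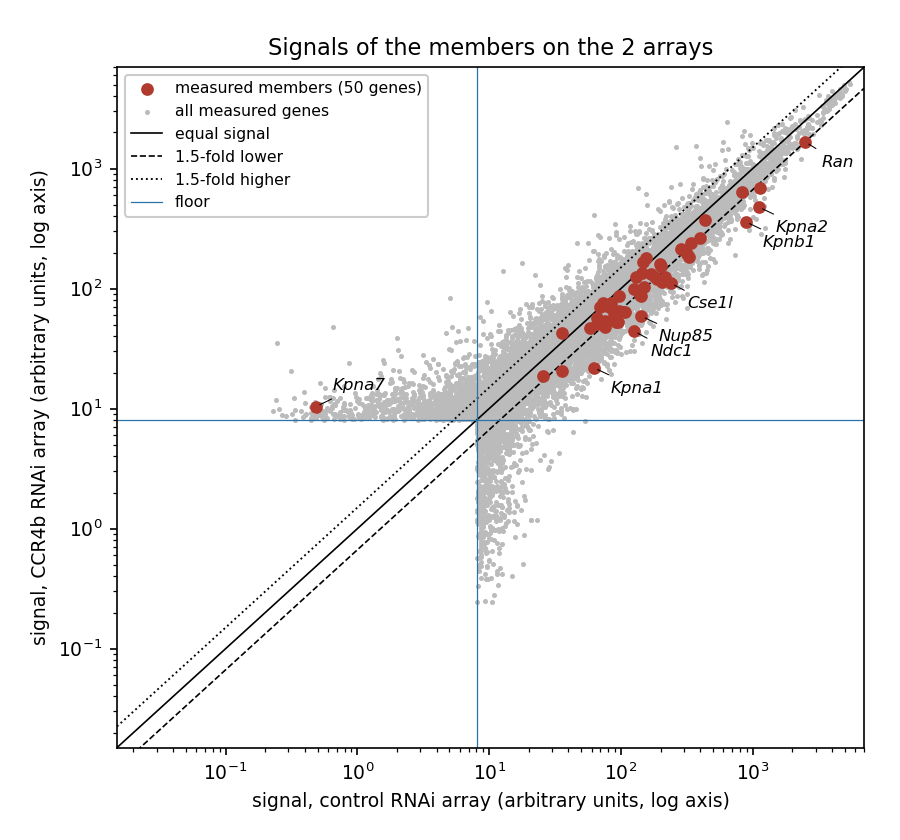
Signal on the CCR4b RNAi array (y axis) against the control RNAi array (x axis), both in arbitrary units on log axes, for the 50 measured members (red) and all measured genes (grey). Most members lie below the line of equal signal, and Kpna7 is the 1 member below the floor on the control array.

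Promoter sequence is shown for Ndc1, Kpnb1 and Kpna2, the members with the lowest ratios for which a promoter was at hand, because such windows show which short motifs these lower members do or do not share. Each line gives the 250 bases before the RefSeq gene start (GRCm38.p6), 5′ to 3′ on the strand of the gene. Capitals mark CCAAT, the motif bound by NF-Y, and TTTGAA, the core of the cell cycle homology region (CHR) found in promoters of many genes of late cell cycle phases, on either strand. On the opposite strand these read ATTGG and TTCAAA. The Ndc1 window lies at chr4:107367797-107368046 on the plus strand, the Kpnb1 window at chr11:97187893-97188142 on the minus strand and the Kpna2 window at chr11:106999526-106999775 on the minus strand.
Ndc1: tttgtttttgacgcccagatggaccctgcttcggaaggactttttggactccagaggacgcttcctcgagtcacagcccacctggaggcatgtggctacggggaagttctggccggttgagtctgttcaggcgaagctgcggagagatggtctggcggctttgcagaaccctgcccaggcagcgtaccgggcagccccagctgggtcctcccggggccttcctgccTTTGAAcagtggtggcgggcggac
Kpnb1: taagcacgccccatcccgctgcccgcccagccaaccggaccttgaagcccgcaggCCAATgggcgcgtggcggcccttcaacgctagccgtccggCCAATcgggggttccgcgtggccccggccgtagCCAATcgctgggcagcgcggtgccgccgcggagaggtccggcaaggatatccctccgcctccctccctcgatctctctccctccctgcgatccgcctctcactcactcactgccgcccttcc
Kpna2: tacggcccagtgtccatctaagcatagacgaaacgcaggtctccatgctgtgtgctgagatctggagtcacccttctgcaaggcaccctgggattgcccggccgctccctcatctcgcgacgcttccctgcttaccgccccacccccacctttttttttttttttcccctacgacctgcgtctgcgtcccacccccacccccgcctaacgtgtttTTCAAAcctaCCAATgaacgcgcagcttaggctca

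The 3 promoters do not carry one common motif. Ndc1 has a CHR core whose first base lies 24 bases before the start and no CCAAT. Kpnb1 has 3 CCAAT motifs, which begin 195, 155 and 122 bases before the start, and no CHR core. Kpna2 has both, with the CHR core on the opposite strand at 35 bases and a CCAAT at 25 bases before the start. A second CCAAT of Kpna2 lies after the start and is not shown. Rangap1, the next lowest member with a promoter (log2 ratio -0.86), had neither motif in the 250 bases before its start. Its window is not shown.

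Over the full windows of 300 bases, which reach 50 bases past the start, 42 members had a promoter in the RefSeq table. Among the lower members, Kpna1, Nup85 and Cse1l, each more than 2-fold lower, and Nup43 had none. The CHR core, TTTGAA on either strand, was present in 12 of these 42 (28.6%), against 14.2% of measured genes and 20.2% of all genes with a promoter. Split by ratio, 7 of 16 lower members held it, against 5 of 25 other measured members. Those 7 were Ndc1, Kpna2, Rangap1, Pom121, Nup37, Rcc1 and Ranbp1. The match of Rangap1 lies after the gene start. Of all measured genes at least 1.5-fold lower, 19.1% held the CHR core. CATGCGC, part of the site of the transcription factor NRF1, was in 10 of 42 member promoters (23.8%), against 7.91% of measured genes. This motif was spread evenly over the members, in 4 of 16 lower and 6 of 25 other ones. CCAAT was in 20 of 42 (47.6%), against 43.2% of measured genes. E2F-type motifs (the word TTCCCGC, or alternatively TTGGCGC, or alternatively TTCGCGC, or alternatively TTGCCGC) were in 9 of 42 (21.4%), against 19.1% of measured genes. They were in 2 of 16 lower and 6 of 25 other measured members, while 23.9% of all measured genes at least 1.5-fold lower held one. CCAAT was in 8 of 16 lower and 12 of 25 other members. Both strands were searched, a gene with several windows counted once if any window held the motif, and motifs may overlap. These are matches of letters, described without a test, and not binding sites.

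The scaffold of the pore was lower in most of its parts. The Y complex forms the outer rings, and all 8 of its members had ratios below 0, as did 56.0% of all measured genes. Of the 8 members, 3 were at least 1.5-fold lower, against 14.6% of all measured genes. Nup85 read 58.8 units in the CCR4b RNAi culture and 143 in the control, 2.43-fold lower (log2 ratio -1.28). Its second probe set differed less, with 70.7 units after CCR4b RNAi and 95.3 in the control (log2 ratio -0.43). Nup37 read 125 units after CCR4b RNAi and 217 units in the control, 1.74-fold lower on its only probe set. Nup43 read 47.8 and 75.9 units in the same order, 1.59-fold lower, on a probe set that may hybridise to other transcripts. Its second probe set, which is not of that kind, was lower by more, at 26.1 units after CCR4b RNAi and 58.9 in the control (log2 ratio -1.17).

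Other Y complex members lay at or inside the 1.5-fold limit. Nup107 and Nup160 had log2 ratios of -0.58 and -0.56. The only probe set of Nup107 may hybridise to other transcripts. The 4 measured probe sets of Nup133 gave -0.37, -2.23, 0.15 and 0.22 and so did not share a direction. The extreme one read 24.2 units after CCR4b RNAi and 114 in the control. Sec13, which also serves in the COPII coat of transport vesicles, had a log2 ratio of -0.22. Seh1l had -0.052 on its brightest probe set, which turned to 0.070 with quantile normalization and 0.085 with loess correction, and its other 5 measured probe sets ranged between -0.78 and 0.38.

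The inner ring, which lies against the membrane and links the scaffold to the channel, was at least 1.5-fold lower in 3 of 4 members. The background was 14.6% of all measured genes. Nup205 read 184 units after CCR4b RNAi and 327 in the control, 1.78-fold lower, and its dimmer probe set gave the same log2 ratio of -0.83. Nup155 read 52.2 units after CCR4b RNAi and 91.3 in the control, 1.75-fold lower, with a log2 ratio of -0.82 on its second probe set. The agreement of both probe sets in these 2 genes was closer than the robust SD of 0.30 between probe sets. Nup93 read 86.7 units after CCR4b RNAi and 143 in the control, 1.65-fold lower. Nup188, which encodes a large scaffold protein related to NUP205, had 43.0 units after CCR4b RNAi and 35.9 in the control (log2 ratio 0.26), while its dimmer probe set gave -0.56.

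The membrane anchors included 1 of the 2 lowest ratios of the members, beside that of Kpna1. Ndc1 encodes a transmembrane nucleoporin that holds the ring in the envelope. It read 44.1 units in the CCR4b RNAi culture and 126 in the control, 2.87-fold lower (log2 ratio -1.52), and its other probe sets gave -1.44 and -1.26. None of the 3 probe sets is of a type open to cross-hybridisation, and all were more than 2-fold lower. Pom121, the other measured anchor, read 114 units after CCR4b RNAi and 205 in the control, 1.79-fold lower, and the dimmer probe set gave -0.49.

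Nucleoporins of the channel and of the outer faces differed less. Nup54, a channel nucleoporin with phenylalanine-glycine repeats, read 120 units after CCR4b RNAi and 186 in the control, 1.55-fold lower. That probe set of Nup54 may hybridise to other transcripts, and the brightest one not of that kind gave -0.61. The 5 probe sets of Nup54 ranged from -1.23 to -0.11. Its partner Nup62 was below 0 on all 5 measured probe sets, with -0.38 on the brightest and -0.88 on the lowest. On the cytoplasmic face Nup214 had a log2 ratio of -0.49 and Nup88 of -0.40. Ranbp2, the giant filament protein that binds RAN and acts as a SUMO ligase, had 166 units after CCR4b RNAi and 148 in the control (log2 ratio 0.17). Ranbp2 probe sets did not share a direction, with -0.23, 0.81 and -0.25 on the dimmer ones, of which the highest had a control signal below the floor. Rae1 and Nup98, which bind each other and act in mRNA export, had -0.54 and -0.35. The second probe set of Nup98 gave -0.017, and a dim one of Rae1, below the floor after CCR4b RNAi, gave -0.0048.

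The nuclear basket was represented by a pair of genes. Nup50, a basket protein that helps to release cargo from importin alpha, read 89.1 units after CCR4b RNAi and 139 in the control, 1.56-fold lower. Its other probe sets did not show this, with log2 ratios of -0.0088 and 0.34. Nup153 had -0.17 on its brightest probe set and -0.53 on the second. Over all 23 measured nucleoporins, 10 were at least 1.5-fold lower, against 14.6% of all measured genes. Their median log2 ratio was -0.56, against -0.070 over all measured genes.

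**Figure D3:**
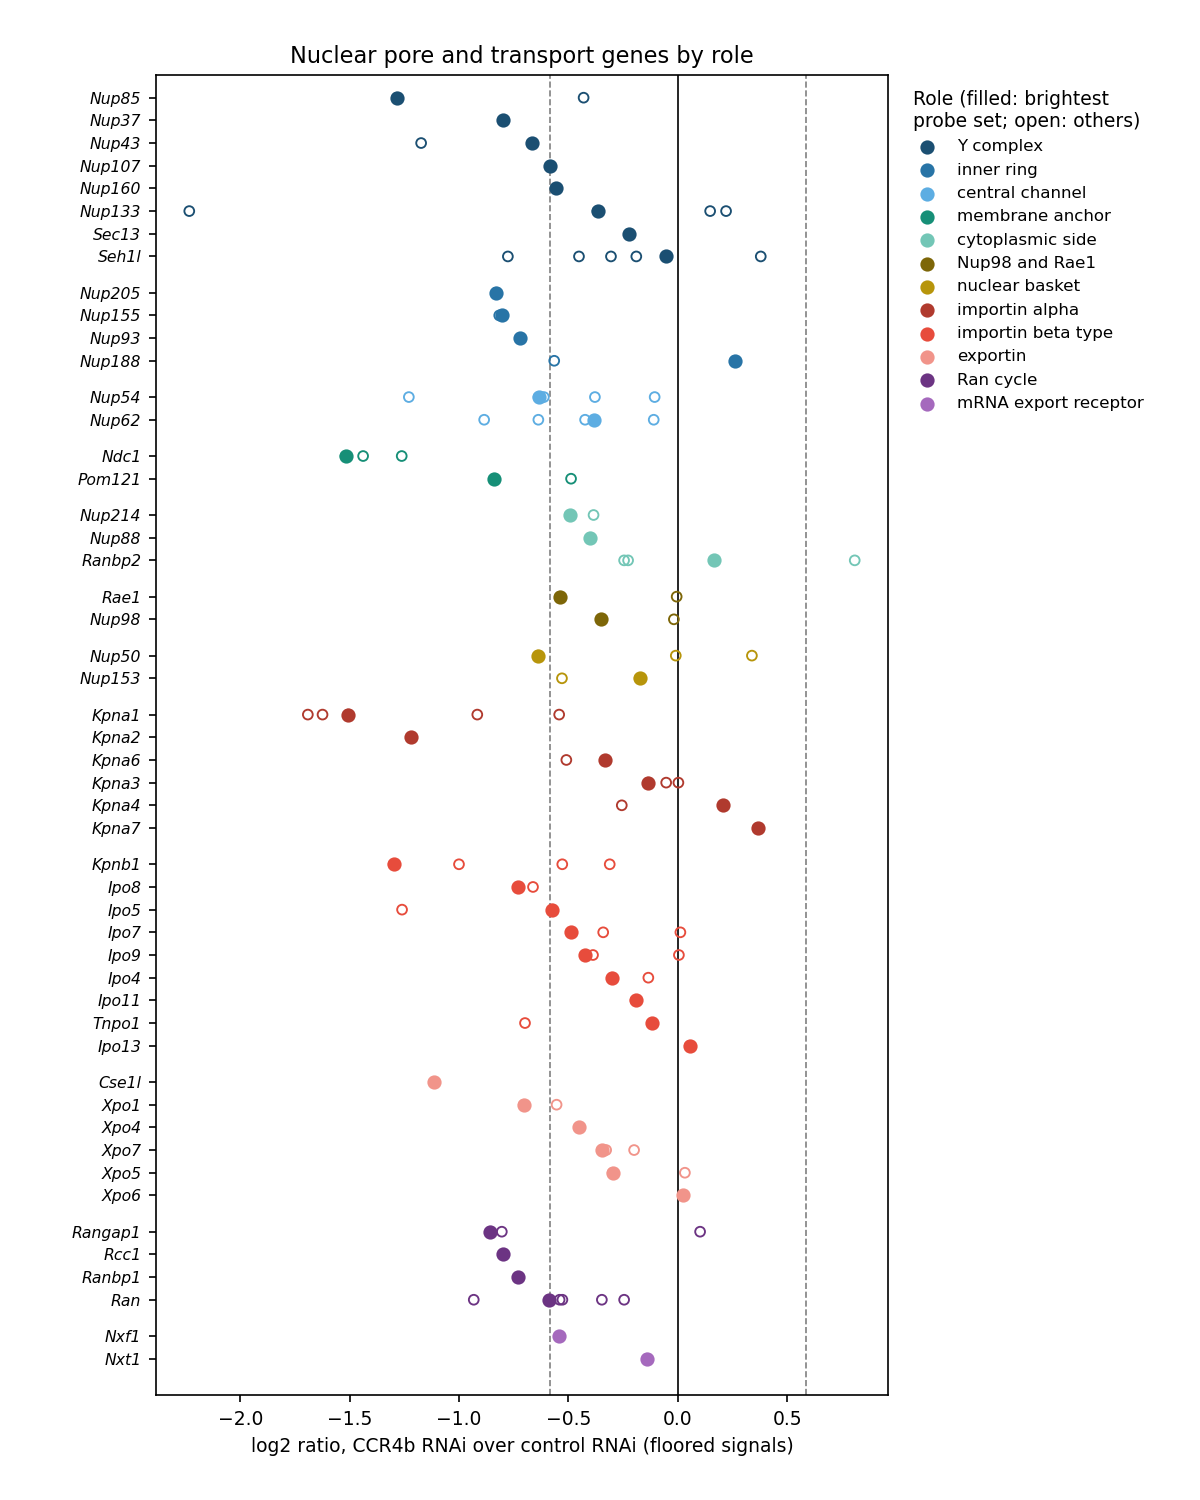
Log2 ratio of CCR4b RNAi over control RNAi (x axis) for each measured member (rows, grouped by role). Filled points are the brightest probe set, open points the other measured probe sets of the gene, and dashed lines mark 1.5-fold. Ndc1 and Kpna1 have the lowest filled points, with all their probe sets below 0, and Nup133 and Ranbp2 have probe sets on both sides of 0.

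The importin alphas bind classical nuclear localisation signals as adaptors for importin beta. They split into 2 that were lower by more than 2-fold and 4 within 1.5-fold. Among those 4, Kpna7 was within 1.5-fold only because its control signal was raised to the floor. Over all measured genes, 4.48% were at least 2-fold lower. Kpna1 read 21.9 units in the CCR4b RNAi culture and 62.3 in the control, 2.84-fold lower (log2 ratio -1.51). That probe set may hybridise to other transcripts, but the 4 others are not of that kind and gave log2 ratios of -1.69, -0.92, -1.62 and -0.54, the last against the floor. With the floor at the 75th percentile, which is above its signal after CCR4b RNAi, the ratio of Kpna1 was -0.80. Kpna2 read 478 units after CCR4b RNAi and 1112 in the control, 2.32-fold lower (log2 ratio -1.22) on its only probe set.

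Paralogs with the same adaptor role were not lower by as much, though Kpna6 was below 0 on both of its probe sets. The 3 probe sets of Kpna3 gave log2 ratios of -0.13, -0.053 and 0.0032. Kpna4 read 180 units after CCR4b RNAi and 155 in the control (log2 ratio 0.21), with -0.26 on its dim probe set. Kpna6 had -0.33 and -0.51. Kpna7, which in mice is known from oocytes and early embryos, read 10.4 units after CCR4b RNAi and 0.486 units in the control, at least 1.29-fold higher against the floor.

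Kpnb1 encodes importin beta, which docks on the pore and carries importin alpha with its cargo. It read 360 units in the CCR4b RNAi culture and 887 in the control, 2.46-fold lower (log2 ratio -1.30), on a probe set that may hybridise to other transcripts. Its other probe sets were also below 0 but disagreed in size. One read 205 units after CCR4b RNAi and 254 in the control (log2 ratio -0.31), another read 130 and 260 units, and the dimmest gave -0.53. Without the probe set open to cross-hybridisation, Kpnb1 would be represented by the ratio of -0.31, inside the 1.5-fold limit.

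Of the other 8 import receptors of the importin beta type, Ipo8 was past 1.5-fold, where the background was 14.6% of all measured genes. Ipo8 read 64.5 units after CCR4b RNAi and 107 in the control, 1.66-fold lower, with a log2 ratio of -0.66 on its second probe set. Ipo5, an importer of ribosomal proteins, was just inside the limit at 266 units after CCR4b RNAi and 396 in the control (log2 ratio -0.57), but its second probe set gave -1.26. Ipo7, Ipo9, Ipo4 and Ipo11 had log2 ratios of -0.49, -0.42, -0.30 and -0.19. Dimmer probe sets of Ipo7, each with a signal below the floor, gave -0.34 and 0.012. Those of Ipo9 gave -0.39 and 0.0055, and that of Ipo4 gave -0.13. Tnpo1, the importer of hnRNP A1 and similar RNA-binding proteins, had -0.12, which turned to 0.0091 with quantile normalization and 0.025 with loess correction, and -0.70 on its second probe set. Ipo13, which carries cargo in both directions, had 0.055, and scaling by the array medians turned this to -0.039.

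Exportins were led by Cse1l, whose product returns importin alpha to the cytoplasm. Cse1l read 111 units in the CCR4b RNAi culture and 240 in the control, 2.17-fold lower (log2 ratio -1.11) on its only probe set. Kpna2, Kpnb1 and Cse1l, which work in one import cycle, were each more than 2-fold lower on their brightest probe set. For Kpnb1 the disagreement described above applies. These genes are named together because their ratios were low, and 4.48% of all measured genes were at least 2-fold lower. Among the other importin alphas, Kpna1 was also more than 2-fold lower, while Kpna3 (-0.13), Kpna4 (0.21) and Kpna6 (-0.33) were within 1.5-fold. Cse1l fell just inside 2-fold with quantile normalization (-0.98) and loess correction (-0.96). Xpo1, the CRM1 exportin that recognises leucine-rich export signals, read 195 units after CCR4b RNAi and 318 in the control, 1.63-fold lower, with a log2 ratio of -0.55 on its second probe set. Xpo4, Xpo7 and Xpo5, the last an exporter of precursor microRNAs, had log2 ratios of -0.45, -0.35 and -0.30. The second probe set of Xpo5, which may hybridise to other transcripts, read 51.1 units after CCR4b RNAi and 49.9 in the control (log2 ratio 0.033). Xpo6, the exporter of actin with profilin, had 0.025, and the same scaling turned this to -0.069. Over all 21 measured receptors, importins and exportins together, 6 were at least 1.5-fold lower, against 14.6% of all measured genes. Their median log2 ratio was -0.35, against -0.070 over all measured genes.

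**Figure D4:**
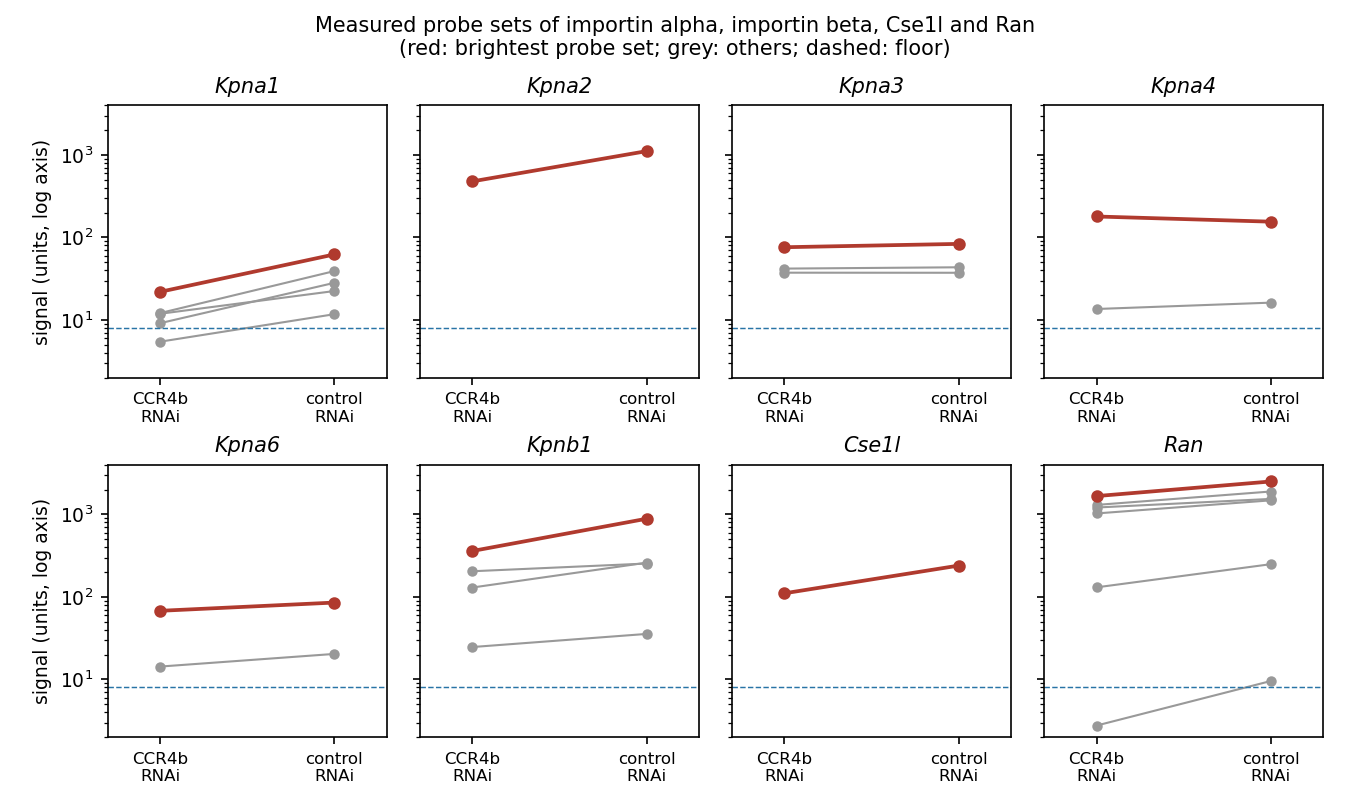
Signal (y axis, arbitrary units on a log axis) of each measured probe set on the CCR4b RNAi array (left in each panel) and the control RNAi array (right) for importin alphas, importin beta, Cse1l and Ran. Red lines are the brightest probe set, grey lines the others, and the dashed line is the floor of 8.07 units. The lines of Kpna1 and Kpna2 slope upwards to the control, whereas those of Kpna3 are nearly level.

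All 4 genes of the Ran cycle passed the 1.5-fold limit, against 14.6% of all measured genes, though none reached 2-fold. With loess correction Ran (-0.44) and Ranbp1 (-0.57) fell inside the limit, and Ran also did with quantile normalization (-0.50) and on the median of its probe sets (-0.53). Rangap1 read 52.5 units in the CCR4b RNAi culture and 95.1 in the control, 1.81-fold lower, with a log2 ratio of -0.80 on the second probe set and 0.10 on a dim one that was below the floor in the control. Rcc1 read 20.7 units after CCR4b RNAi and 36.0 in the control, 1.74-fold lower on its only probe set. Ranbp1, a cofactor of RANGAP1, read 691 units after CCR4b RNAi and 1145 in the control, 1.66-fold lower.

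Ran, the GTPase, lay at the limit. It read 1670 units in the CCR4b RNAi culture and 2509 in the control, just past 1.5-fold lower (log2 ratio -0.59). All 6 of its measured probe sets were below 0, and 5 of them are of a type that may hybridise to other transcripts. The remaining one read 131 units after CCR4b RNAi and 249 in the control (log2 ratio -0.93). The mRNA export receptor is a heterodimer of NXF1 and NXT1. Nxf1 had 104 units after CCR4b RNAi and 151 in the control (log2 ratio -0.54), and Nxt1 had 71.1 and 78.4 units (log2 ratio -0.14).

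The count of lower members depends on where the limit falls, since many ratios lie near it. Within 0.1 log2 units of the 1.5-fold limit, 4 members were inside the lower group, of which Ran was the closest, and 7 were outside, of which Nup107 was the closest. Agreement between probe sets is a further description. Among 33 members with more than 1 measured probe set, 22 had every one below 0. Among the 14 lower members with more than 1, 12 had every one below 0 and 5 had every one at least 1.5-fold lower, namely Nup43, Nup205, Nup155, Ndc1 and Ipo8. The brightest probe set of each lower member passed by selection, and these per-gene counts were not made over all genes. Counted singly, 97 of 113 measured member probe sets were below 0 (85.8%), against 53.4% of all measured probe sets.

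Other genes of nuclear transport and the nuclear envelope showed a similar lean. From a list of 48 genes outside the name rule, 43 were measured, of which 13 were at least 1.5-fold lower (background 14.6% of all measured genes) and 0 were as much higher (background 11.3%). Their median log2 ratio was -0.44, against -0.070 over all measured genes. Alyref, an adaptor that loads NXF1 onto mRNA, read 61.5 units after CCR4b RNAi and 147 in the control, 2.40-fold lower, but its dim probe set gave 0.46. Aaas, which encodes aladin, a nucleoporin anchored by NDC1, read 42.5 units after CCR4b RNAi and 91.0 in the control, 2.14-fold lower on its only probe set. Ddx39a, an RNA helicase of mRNA export, read 285 units after CCR4b RNAi and 587 in the control, 2.06-fold lower, with its 4 other probe sets between -1.23 and -0.66.

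Envelope proteins in the same list included Lbr, the lamin B receptor, which was 1.98-fold lower at 130 units after CCR4b RNAi and 257 in the control. Banf1, which bridges chromatin and envelope, was 1.90-fold lower at 402 units after CCR4b RNAi and 765 in the control, with log2 ratios of -0.93 and -0.85 on its other probe sets. Nupl1, a channel nucleoporin that binds NUP62 and NUP54, was 1.87-fold lower and below 0 on all 4 probe sets. Mcm3ap, Eny2, Rangrf, Senp2, Nxt2, Ranbp3 and Senp1 were between 1.53-fold and 1.85-fold lower. Of these, Eny2 (0.32 and 0.99), Ranbp3 (0.25) and Senp1 (0.011) had dimmer probe sets with log2 ratios above 0. The highest ratio of the list was that of Thoc2, a subunit of the THO complex that couples transcription to mRNA export, at 184 units after CCR4b RNAi and 140 in the control (log2 ratio 0.40, with 0.46 and 0.50 on its other probe sets).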

How the data were processed

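The deposited numbers are linear intensities, 1 per probe set, which the authors obtained from GCOS after a global normalization, per the series design text. No version, target value or detection call was found in the labels. Medians were 8.34 units (CCR4b RNAi) and 7.81 units (control RNAi). The number of arrays limits the precision, since no test is possible with 1 per group.

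Signals were raised to the floor (50th percentile of all values), and log2 of CCR4b RNAi minus log2 of control RNAi was taken with Python 3.11.15, pandas 2.3.3 and statsmodels 0.14.6. Genes were named from the platform annotation where a probe set has 1 symbol (34958 probe sets). All 52 member symbols matched GRCm38.p6 RefSeq by gene ID. A member at least 1.5-fold different was given with both signals, and others by ratio. Identifiers ending in _x_at or _s_at mark probe sets that may cross-hybridise. The brightest probe sets of Nup43, Nup107, Seh1l, Nup54, Nup62, Kpna1, Kpnb1, Ipo9 and Ran are of this kind. The steps were tested on data simulated from the control array, with large shifts in bright genes and little noise. That test does not cover ratios near the 1.5-fold limit. The members, lists and motifs were chosen with earlier results of these data known. Alternatives were 3 scalings, 3 floor settings and 2 choices of probe set.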

Additional observations from a re-analysis of the deposited data

How the results depend on the processing

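No paired analysis was possible because each group holds 1 array. Under 8 alternatives the number of members at least 1.5-fold lower lay between 14 (loess correction, 13.2% of all measured genes) and 26 (each array divided by its median, 19.0% of all measured genes), against 20 as reported. The number at least 2-fold lower lay between 4 and 7. The 7 came with the floor at the 25th percentile and included Nup210l, which was unmeasured at the main floor. Without _x_at and _s_at probe sets, Nup43 (-1.17) took the place of Kpnb1 among the 6. The median log2 ratio of the members lay between -0.61 and -0.40, and its difference from the median of all measured genes between -0.45 and -0.38. The number at least 1.5-fold higher was 1 with the floor at the 25th percentile and 1 without a floor, and that member was Kpna7. Its log2 ratio there was 2.28 and 2.94, set by a control signal below the floor. Of the 20 lower members, 12 stayed past 1.5-fold in all 8 settings. The exceptions were Kpnb1, Nup43, Nup50, Nup54, Ran, Ranbp1, Rcc1 and Xpo1. Loess correction took Nup43 (-0.58), Nup50 (-0.51), Nup54 (-0.49), Ran (-0.44), Ranbp1 (-0.57) and Xpo1 (-0.53) inside 1.5-fold. At 2-fold, Cse1l was inside the limit with quantile normalization (-0.98) and loess (-0.96), Kpna1 with the floor at the 75th percentile (-0.80), and Nup85 (-0.86) and Kpnb1 (-0.76) on the median of probe sets. Kpna1 was lower than Ndc1 in 4 settings, quantile normalization, loess, the median of probe sets and without _x_at and _s_at probe sets. Kpnb1 moved to -0.31 without _x_at and _s_at probe sets, Nup50 to -0.0088 with the probe sets of a gene summarised by their median, and Rcc1 to -0.0044 with the floor at the 75th percentile, which lies near its control signal. No lower member changed direction in these settings. Signal over background limits Kpna7, Nup210 and Nup210l.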
